A study of Mus musculus with 3 samples.

Results

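The genes described here encode proteins that decide how long inflammatory messenger RNAs last. They were fixed by name as Zfp36, Zfp36l1, Zfp36l2, Elavl1, Khsrp, Zc3h12a, Rc3h1 and Rc3h2, and all 8 were found by their symbols among the 24411 genes tabulated. The libraries were made from total RNA of brain microglia, the resident macrophages of the brain, of C57BL/6J mice. The 3 libraries, replicates 1 to 3, formed 1 group, in which Mir137, the gene of miR-137, was floxed on both alleles (genotype cKO, Mir137loxP/loxP with Tmem119-CreERT2) and a Pu.1 inhibitor was the labelled treatment. Pu.1, encoded by Spi1, is a transcription factor of macrophages. Tmem119-CreERT2 is a recombinase switched on by tamoxifen and driven by a microglial gene. The labels gave an age of 6 to 8 weeks, and the design text gave 7 days of tamoxifen starting at 7 to 8 weeks of age and 4 mice, without saying which mice went into which library. No source used here gave the name, dose or route of the inhibitor. Libraries with Mir137 intact or without the inhibitor were not analysed here, so the values are levels in this 1 condition. Nothing stated that the replicates were separate animals, so any p-value reflects the spread among these 3 libraries alone, and that spread may be technical.

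Many cytokine and immediate early transcripts carry AU-rich elements or stem-loops in the 3′ untranslated region (3′ UTR), and proteins that bind these elements set how fast the transcript is degraded. Tristetraprolin (Zfp36) and its relatives Zfp36l1 and Zfp36l2 bind AU-rich elements through paired CCCH zinc fingers and recruit the CCR4-NOT deadenylase, and KSRP (Khsrp) recruits decay enzymes to similar elements. HuR (Elavl1) binds AU-rich RNA and usually stabilises it. Regnase-1 (Zc3h12a) is an endonuclease that cuts stem-loops of cytokine transcripts, and the roquins (Rc3h1 and Rc3h2) bind stem-loops and also recruit CCR4-NOT. In macrophages those of these proteins that promote decay limit the output of cytokines such as TNF.

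The 3′ UTRs of the regulators themselves were searched for the sense-strand nonamer TTATTTATT, a core AU-rich element, in GENCODE M21 transcripts of the GRCm38 build. With the longest annotated 3′ UTR of each gene, 6 of 8 regulators held at least 1 match, against 1611 of 21006 protein-coding genes (7.67%). The stretches below show the first match of each of the 6 and, for comparison, the first of the 5 matches in Tnf, a classical target of tristetraprolin. Capitals mark the nonamer, and flanks are 10 bases long.
Zfp36, chr7:28376951-28376979, minus strand: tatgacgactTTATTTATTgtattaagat
Zfp36l1, chr12:80108167-80108195, minus strand: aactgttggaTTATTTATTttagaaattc
Zfp36l2, chr17:84184914-84184942, minus strand: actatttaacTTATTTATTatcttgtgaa
Elavl1, chr8:4285788-4285816, minus strand: gtcatgaaaaTTATTTATTtatttattta
Rc3h1, chr1:160970043-160970071, plus strand: actttactcaTTATTTATTgagatgagga
Rc3h2, chr2:37373287-37373315, minus strand: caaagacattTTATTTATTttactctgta
Tnf, chr17:35199689-35199717, minus strand: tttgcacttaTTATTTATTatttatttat

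Elavl1 stood apart with 8 nonamers, which began between bases 3794 and 3840 of its 4218-nt 3′ UTR and mostly overlapped one another. The other 5 regulators with a match had 1 each. At least 3 nonamers were found in 142 genes (0.676% of all). Longer 3′ UTRs hold more matches by length alone, so each gene was also set beside genes whose 3′ UTR was 0.8 to 1.25 times as long. A match was present in 4.17% of genes with a 3′ UTR like that of Zfp36 (774 nt), in 10.2% for Zfp36l1 (1835 nt), in 10.1% for Zfp36l2 (1822 nt) and in 18.01% for Elavl1. For the long 3′ UTRs of Rc3h2 (5331 nt) and Rc3h1 (7181 nt) the shares were 22.4% and 28.3%. Khsrp (1642 nt) and Zc3h12a (856 nt) had no nonamer in this window. The shorter pentamer ATTTA, which lies inside the nonamer, was found in all 8, from 1 copy in Khsrp to 25 in Rc3h2, and in 65.2% of all genes. With the shortest annotated 3′ UTR of each gene, 3 of 8 held the nonamer (Zfp36, Zfp36l2 and Rc3h2), against 4.95% of all genes. Zfp36l1, Khsrp and Rc3h1 then held no pentamer either, in 3′ UTRs of 37, 91 and 20 nt. Gene-level values do not show which 3′ UTR was used, and a match is a description of the letters, not a measured binding site.

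**Figure D1:**
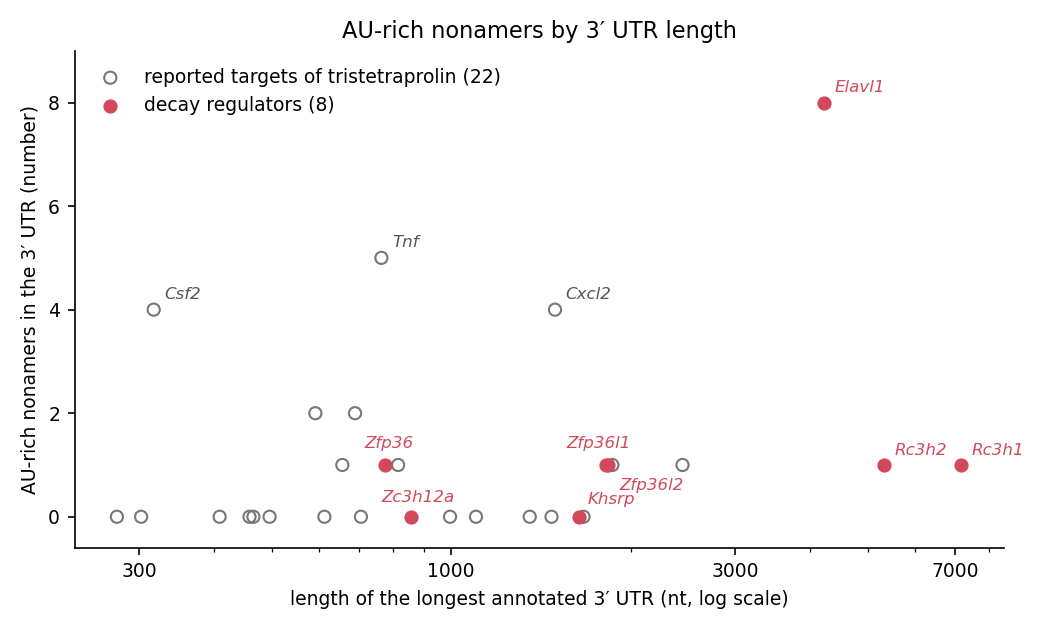
Number of AU-rich nonamers in the longest annotated 3′ UTR (vertical axis) against its length in nt (horizontal log axis) for the 8 decay regulators (filled points) and 22 reported targets of tristetraprolin (open circles). Elavl1 has 8 nonamers, above Tnf with 5, while 5 regulators have 1 and 2 have none.

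The microRNA whose gene was targeted in these mice was compared with the same 3′ UTRs. The mature miR-137 of RefSeq (GRCm38.p6, chr3:118433901-118433923, plus strand) is printed with its seed, bases 2 to 8, in capitals, and is followed by the matches to the reverse complement of that seed, AGCAATA.
mmu-miR-137-3p: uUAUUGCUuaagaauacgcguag
Zfp36l2 match 1, chr17:84184847-84184873, minus strand: gtatgatgaaAGCAATAgatatatatt
Zfp36l2 match 2, chr17:84184428-84184454, minus strand: agagacatgtAGCAATAatgggggaaa
Zfp36l2 held 2 matches and the other 7 regulators held none. A match occurred in 9.67% of all genes and in 12.001% of genes with a 3′ UTR of similar length to that of Zfp36l2. Without libraries of intact Mir137, no effect of the microRNA on Zfp36l2 was measured. Mir137 itself was listed at 0 in all 3 libraries, and a microRNA gene in a table of this kind does not test the deletion.

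The libraries held 17180404, 15710750 and 16356125 estimated counts. All 10 microglial markers were detected, with 3.03 ± 0.0421% of counts (SD, n = 3) and a summed 13394 to 13980 FPKM. Markers of other cells were also present: all 10 of neutrophils, 8 of 8 each of monocytes, border macrophages, endothelial cells, astrocytes and oligodendrocytes, 3 of 10 of lymphocytes and 3 of 8 of neurons were detected. Neutrophil markers took 0.349 ± 0.0116% of counts, with a summed 13829 to 15295 FPKM, and endothelial markers 0.341 ± 0.00661%. Of the neuronal markers, Stmn2 was highest at 14.2 ± 0.917 FPKM (SD, n = 3) and Nefl lowest at 0. The summed FPKM of the other lists was 682 to 767 for monocytes, 299 to 328 for border macrophages, 2289 to 2462 for endothelial cells, 172 to 193 for astrocytes, 294 to 351 for oligodendrocytes, 21.8 to 26.3 for lymphocytes and 18.6 to 20.95 for neurons. The regulators are expressed in many of these cells, and the part of other cells in their levels was not tested. In bulk RNA, fewer cells of a type and less RNA per cell cannot be told apart. Reads from overlapping genes cannot be told apart either, as strand was not stated. GENCODE M21 places a gene on the opposite strand over exons of 5 regulators, and of these partners Ccl25, which overlaps Elavl1, was matched in the table, at 1.31 ± 0.168 FPKM (SD, n = 3).

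Levels are given as FPKM, which divide fragment counts by effective gene length and by library size and so allow genes of different length to be compared. All 8 regulators were detected, meaning 1 FPKM or more in each of the 3 libraries, as were 11680 genes of the table. Their levels fell into a high set, the tristetraprolin family, and a low set of the other 5 genes, and the lowest of the first, Zfp36l1, exceeded the highest of the second, Khsrp, by 14.5 ± 1.22 times (SD, n = 3). The median over the 8 of log2(FPKM + 1) was 4.08 ± 0.06 (SD, n = 3), beside 3.82 ± 0.0031 for all detected genes and 0.95 ± 0.02 for all genes tabulated. In all, 6 of 8 lay above the median of detected genes.

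Zfp36 (chromosome 7, 28376784 to 28380253, minus strand, 2 exons), the gene of tristetraprolin, was the most abundant. It was at 1729, 1787 and 1708 FPKM in replicates 1, 2 and 3, a mean of 1741 ± 40.6 (SD, n = 3), and ranked 27th of all genes. These values rested on 44095, 41605 and 41481 estimated counts. Replicate 2 was highest, and the highest and lowest libraries differed by a factor of 1.05 in normalised counts.

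Zfp36l2 (chromosome 17, 84183931 to 84187947, minus strand), an AU-rich element binding protein also needed for blood stem cells, was at 359, 332 and 374 FPKM, a mean of 355 ± 21.4 (SD, n = 3). Zfp36l1 (chromosome 12, 80107754 to 80113013, minus strand), another decay factor of the same family, was at 239, 223 and 246 FPKM, a mean of 236 ± 11.5 (SD, n = 3). Both were lowest in replicate 2 and highest in replicate 3, the reverse of Zfp36. Their ratio moved less than either gene: Zfp36l2 exceeded Zfp36l1 by 1.505 ± 0.0183 times (SD, n = 3), whereas Zfp36 exceeded Zfp36l2 by 4.92 ± 0.419 times. Summed over the 3 genes the family was at 2327, 2342 and 2328 FPKM in replicates 1, 2 and 3. Zfp36 made up 74.7 ± 1.49% of that sum, Zfp36l2 15.2 ± 0.965% and Zfp36l1 10.1 ± 0.525% (SD, n = 3).

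Khsrp (chromosome 17, 57021051 to 57031522, minus strand), which encodes the KH-domain protein KSRP, was at 16.3, 16.9 and 15.7 FPKM, a mean of 16.3 ± 0.597 (SD, n = 3). Elavl1 (chromosome 8, 4285382 to 4325413, minus strand), the gene of the stabilising protein HuR, was at 13.9, 13.7 and 15.4 FPKM, a mean of 14.3 ± 0.933 (SD, n = 3). Khsrp was above Elavl1 in every library, by 0.18 ± 0.13 in log2(FPKM + 1). The summed tristetraprolin family exceeded Elavl1 by 163 ± 10.6 times in FPKM (SD, n = 3), with 167, 171 and 151 times in replicates 1, 2 and 3. Such ratios compare transcripts and not proteins.

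Zc3h12a (chromosome 4, 125118423 to 125127840, minus strand), the gene of the endonuclease Regnase-1, was at 16.8, 13.5 and 16.3 FPKM, a mean of 15.6 ± 1.77 (SD, n = 3). Replicate 2 was low, and its spread was the widest of the 8 genes, a factor of 1.24 between the highest and the lowest library in normalised counts. Rc3h1 (chromosome 1, 160906418 to 160974978, plus strand), the gene of roquin-1, was at 12.4, 10.5 and 12.5 FPKM, a mean of 11.8 ± 1.15 (SD, n = 3), again lowest in replicate 2. Rc3h2 (chromosome 2, 37370069 to 37422903, minus strand), the gene of roquin-2, was lowest of all at 8.86, 8.57 and 8.63 FPKM, a mean of 8.69 ± 0.153 (SD, n = 3). Rc3h1 made up 57.5 ± 2.22% of the summed FPKM of both roquins, and their ranges over the libraries did not overlap.

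**Figure D2:**
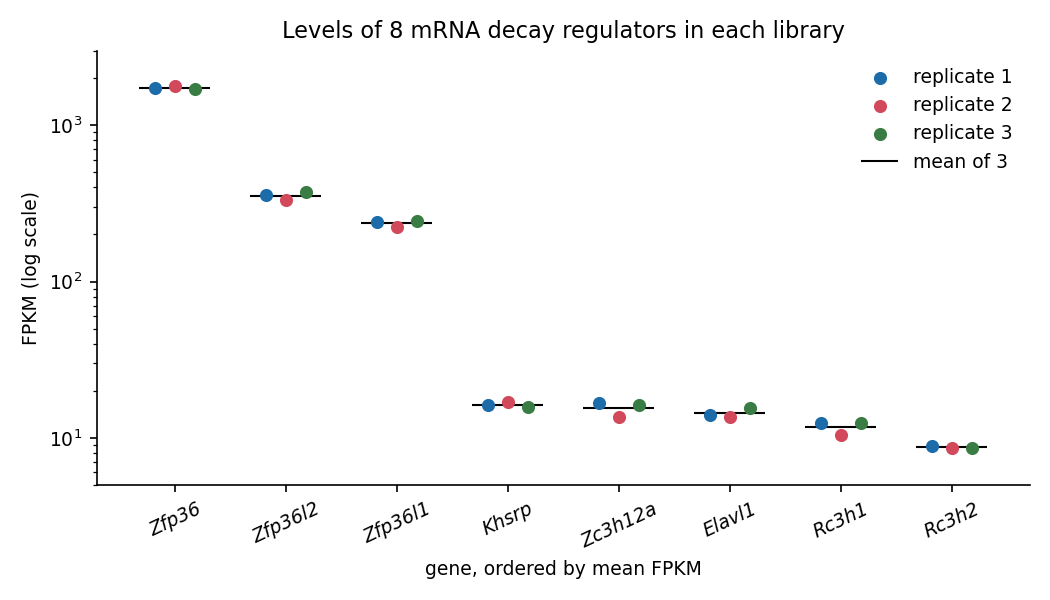
FPKM on a log axis for each of the 8 decay regulators, ordered by mean; points are the 3 libraries and the black line is their mean. Zfp36, Zfp36l2 and Zfp36l1 lie above 223 FPKM in every library and the other 5 genes below 17.

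In this order, 5 of 7 pairs of neighbours kept the same direction in 3 of 3 libraries without overlap of their ranges. The exceptions were in the middle. Khsrp exceeded Zc3h12a by 0.07 ± 0.20 in log2(FPKM + 1) and was higher in 1 library, and Zc3h12a exceeded Elavl1 by 0.11 ± 0.14 and was higher in 2 libraries (SD, n = 3). Neither of these pairs differed beyond its spread. Elavl1 lay above Rc3h1 by 0.27 ± 0.10 and Rc3h1 above Rc3h2 by 0.40 ± 0.12. A two-sided exact permutation test that flips the sign of each library's difference gave p = 0.25 for each pair with 1 direction, the smallest that 3 libraries allow, so no pair could pass a threshold of 0.05. The lower part of the order depended on the correction for length. In CPM, counts scaled to library size without that correction, Rc3h1 came next after the tristetraprolin family at 127 ± 12.2 CPM, followed by Elavl1 at 82.5 ± 5.26, Rc3h2 at 75.5 ± 1.32, Khsrp at 60.7 ± 2.29 and Zc3h12a at 39.3 ± 4.45 CPM (SD, n = 3). The effective length, recovered from counts and FPKM, was 10732 nt for Rc3h1 and 2524 nt for Zc3h12a. The tristetraprolin family kept its order in CPM, at 2587 ± 61.8 for Zfp36, 1156 ± 68.4 for Zfp36l2 and 638 ± 30.5 for Zfp36l1.

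The spread between libraries was often larger than counting error. In normalised counts, the highest and lowest libraries differed by a factor of 1.03 for Rc3h2 to 1.24 for Zc3h12a. The median factor over all genes tested was 1.17. Zc3h12a and Rc3h1 (1.19) lay above that median and the other regulators below it. The counts of the 3 libraries were compared for each gene with a chi-square test (Benjamini-Hochberg adjustment over 13246 genes), which called 6 of 8 regulators, beside 41.4% of all genes tested. The test compares libraries, not conditions, and is more sensitive at high counts: among the 6076 genes with a mean of at least 500 counts, as all 8 regulators have, 50.5% were called. Zfp36l2 had the lowest adjusted p, 2.13e-26 by that test, at a factor of 1.12 between the highest and lowest library. Zfp36 was called at an adjusted p of 2.44e-09 although its libraries differed by a factor of 1.05. Rc3h1 (adjusted p = 1.78e-07), Zfp36l1 (3.50e-09), Zc3h12a (0.00170) and Elavl1 (0.0143) were also called by the chi-square test. Khsrp and Rc3h2 were not, at adjusted p = 0.346 and 0.744. The coefficient of variation beyond counting error, estimated by edgeR with information shared between genes, ran from 4.87% for Zfp36 to 7.74% for Zc3h12a. Its median was 8.66% over the genes tested, which include genes of low counts. The observed coefficient of variation of CPM ran from 1.75% for Rc3h2 to 11.3% for Zc3h12a, with Rc3h1 at 9.64%. For Zfp36, Zfp36l1, Khsrp and Rc3h2 it was below the edgeR estimate, as at 2.39% beside 4.87% for Zfp36. For Rc3h2 the edgeR estimate was 5.86%. For these genes that estimate is therefore not a spread seen in these libraries. Whether the spread between libraries is biological or technical was not tested. Without replicate 2, 2 of 8 regulators were called (Zfp36l2 and Elavl1), beside 18.6% of all genes.

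Replicate 2 was the lowest library for 6 of 8 regulators, and for 35.4% of all genes tested. Among genes with a mean of at least 500 counts the share was 40.7%. The exceptions were Zfp36 and Khsrp, which were highest there. Rc3h2 was lowest there by little, at 74.6 CPM beside 74.9 in replicate 3. The values of replicate 2 moved with gene length. When the genes were split into 3 equal classes of effective length, it was the lowest library for 21.4% of short, 34.5% of middle and 50.2% of long genes. Zfp36 was in the short class, Zfp36l1, Zfp36l2 and Zc3h12a in the middle class, and Elavl1, Khsrp, Rc3h1 and Rc3h2 in the long class. With library sizes set within each class, an alternative added after seeing the data, 5 of 8 regulators were called, beside 37.1% of all genes. Elavl1 was not called (adjusted p = 0.140 by the same chi-square test). Zfp36 stayed called, but its adjusted p by that test rose from 2.44e-09 to 0.0251. For Rc3h1 it rose from 1.78e-07 to 0.000287. By the same chi-square test, the adjusted p of Zfp36l2, Zfp36l1 and Zc3h12a hardly moved. It went from 2.13e-26 to 5.75e-27, from 3.50e-09 to 2.99e-09 and from 0.00170 to 0.00209. Khsrp and Rc3h2 stayed uncalled, with adjusted p by this test falling from 0.346 to 0.0504 and from 0.744 to 0.519. The summed FPKM of 8 of the 9 lists of cell type markers, all but that of neurons, was also highest in replicate 2. The part of other cells in these differences was not tested.

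**Figure D3:**
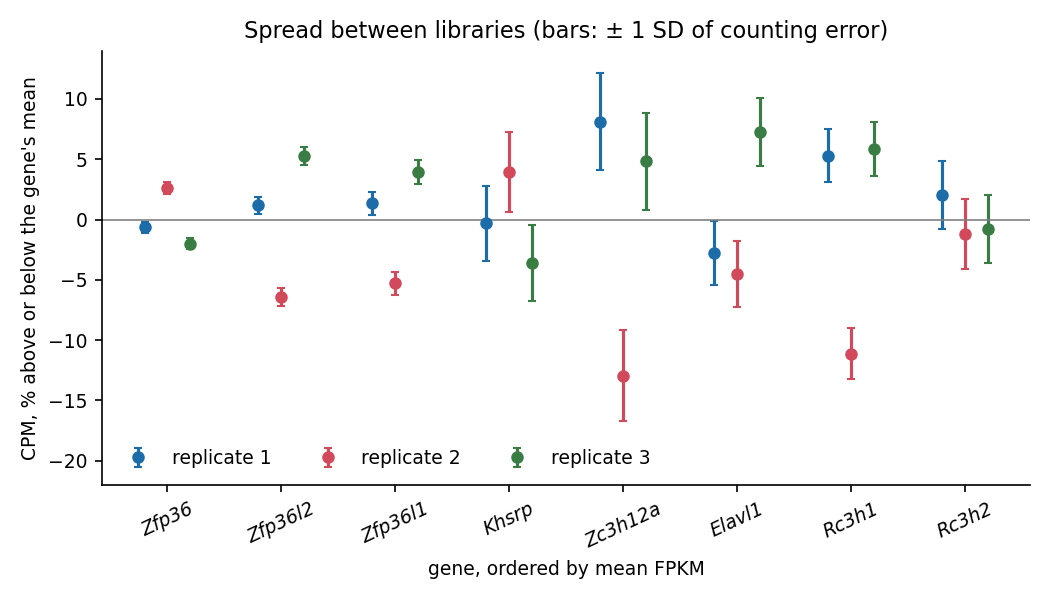
CPM of each library as percent above or below the gene's mean, for the 8 decay regulators; bars are ± 1 SD of counting error. Replicate 2 is the lowest point for 6 genes, furthest below for Zc3h12a and Rc3h1, and the highest for Zfp36 and Khsrp.

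Close relatives of the regulators were mostly lower. Of 10 such genes 5 were detected, at a median log2(FPKM + 1) of 1.16 ± 0.11 (SD, n = 3). N4bp1, a relative of Regnase-1, was at 19.3 ± 0.408 FPKM, Fubp3, a relative of KSRP, at 15.9 ± 2.82 and Zc3h12c, another Regnase, at 12.8 ± 1.04 (SD, n = 3). N4bp1 thus stood at a mean above Zc3h12a itself. The neuronal HuR relative Elavl2 was lowest at 0.093 ± 0.118 FPKM, with 1, 2 and 13 counts in replicates 1, 2 and 3.

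General genes of RNA decay, part of which act in the machinery that these proteins recruit, were detected throughout. All 18 genes of deadenylation were detected, at a median log2(FPKM + 1) of 4.76 ± 0.07 (SD, n = 3). The BTG family genes Btg2 and Btg1, which link CCR4-NOT to RNA, were highest at 473 ± 25.4 and 157 ± 6.38 FPKM, followed by the catalytic subunit gene Cnot8 at 93.8 ± 5.21, and Pan2 of the other deadenylase was lowest at 8.41 ± 1.06 (SD, n = 3). All 18 genes of decapping and decay from the 5′ end were detected, at a median of 3.93 ± 0.06, with the helicase gene Ddx6 at 88.5 ± 2.15, the nuclear exonuclease gene Xrn2 at 35.1 ± 0.95 and Lsm3 at 34.5 ± 3.17 FPKM, and Dcp1b lowest at 3.87 ± 0.215. All 17 genes of the exosome list (exosome, cofactors and other decay from the 3′ end) were detected, at a median of 3.72 ± 0.19. They ran from Wdr61 at 34.6 ± 1.67, Exosc5 at 34.3 ± 1.87 and Exosc9 at 27.3 ± 2.92 to Ttc37 at 4.91 ± 0.367 FPKM. The chi-square test called 13 of 18 deadenylation genes, 7 of 18 decapping genes and 7 of 17 exosome genes, beside 41.4% of all genes tested. Nonamers in the longest 3′ UTR were found in 1 of 17 genes of deadenylation matched in GENCODE, 2 of 18 of decapping and 0 of 17 of the exosome. The share over all protein-coding genes was 7.67%. Median 3′ UTR lengths were 1447, 1593.5 and 472 nt for these lists, beside 1828.5 nt for the regulators.

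Transcripts reported as targets of tristetraprolin were present at very different levels beside abundant Zfp36. Of 22 measured, 19 were detected, at a median log2(FPKM + 1) of 5.99 ± 0.02 (SD, n = 3). The nonamer was present in the longest 3′ UTR of 9 of 22, beside 7.67% of all protein-coding genes. Fos, an AP-1 subunit, was at 2083 ± 31.9, the MAP kinase phosphatase gene Dusp1 at 1848 ± 16.1 and the chemokine gene Ccl3 at 1387 ± 70.3 FPKM (SD, n = 3). Dusp1 and Zfp36 stood at a ratio of 1.06 ± 0.0317. Tnf was at 54.2, 58.4 and 56.7 FPKM in replicates 1, 2 and 3, so Zfp36 exceeded it by 30.9 ± 0.913 times. Tnf did not differ between libraries beyond counting error (chi-square test, adjusted p = 0.256). Il1b was at 190 ± 13.0 FPKM and Il6 at 7.41 ± 1.27 FPKM. At the bottom, Csf2 and Il23a had 0 counts in every library, which allows up to 0.175, 0.191 and 0.183 CPM in replicates 1, 2 and 3 (3 counts, counting error only).

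Of 17 reported targets of Regnase-1 or the roquins, 12 were detected, at a median log2(FPKM + 1) of 3.40 ± 0.16 (SD, n = 3). Lcn2, an iron-sequestering lipocalin also made by neutrophils, was at 424 ± 15.1, Ier3, an immediate early gene, at 220.5 ± 3.83 and Nfkbiz, a nuclear regulator of NF-kB, at 112 ± 11.1 FPKM. Il2 and Calcr had 0 counts in every library. Zc3h12a is itself on this list. Of its 12 tested genes 4 were lowest in replicate 2, Zc3h12a among them, beside 35.4% of all genes tested. The list shared Tnf, Il6, Nfkbiz, Ptgs2, Ier3 and Cxcl1 with the list of tristetraprolin targets.

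**Figure D4:**
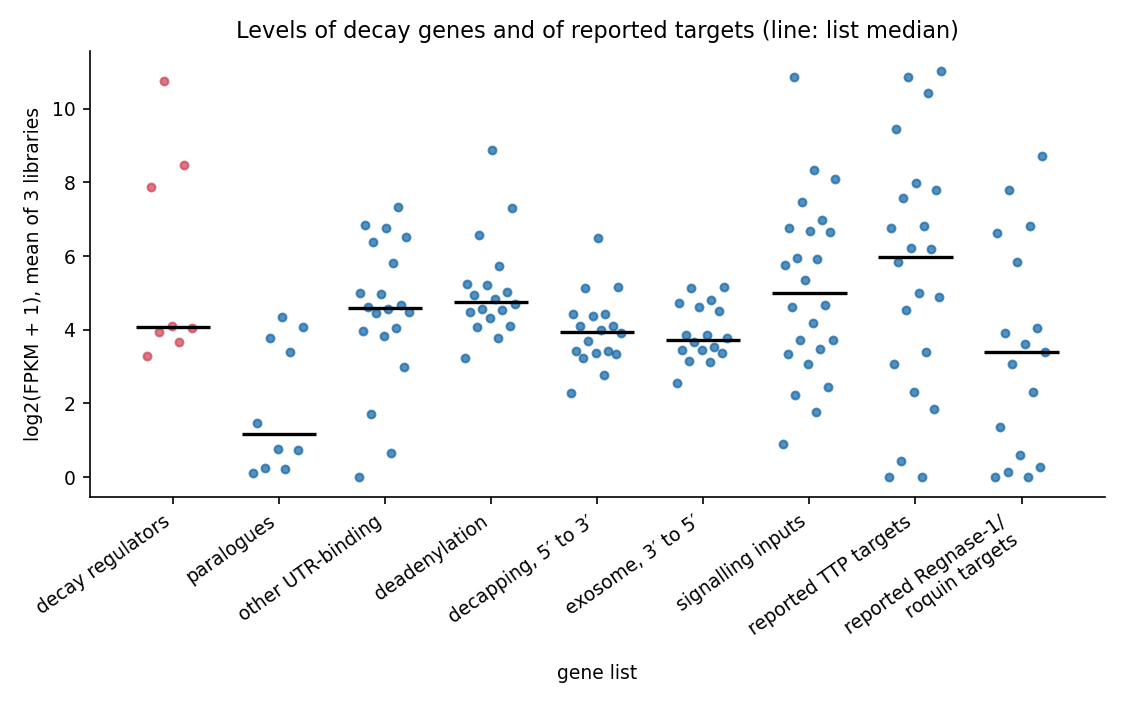
Mean log2(FPKM + 1) over 3 libraries of each gene (points) and the list median (line) for the decay regulators and 8 related lists. All points of deadenylation, decapping and exosome lists lie above 2, while the target lists reach from 0 to above 8.

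By the distance between log2(FPKM + 1) values over the 3 libraries, the genes nearest to Zfp36 among 11679 other detected genes were Itm2b, a membrane protein gene (distance 0.10, 1673 ± 43.2 FPKM), and Sepp1, the gene of selenoprotein P (0.10, 1814 ± 37.7 FPKM). Nearest to Zfp36l2 were the transporter gene Slco2b1 (0.07, 358 ± 10.1 FPKM) and the RNA sensor gene Tlr7 (0.10, 356 ± 10.3 FPKM). Nearest to Zfp36l1 were Marcks, a substrate of protein kinase C (0.05, 234 ± 8.84 FPKM), and Scoc (0.08, 241 ± 7.11 FPKM).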

How the data were processed

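Total RNA of mouse microglia was sequenced in 3 libraries of 1 group. The authors deposited estimated counts per gene, not normalised between libraries, and FPKM per gene. Per the submitters' processing notes, the tools included the aligner STAR (2.7.9a), the quantifier RSEM and DESeq2, and the builds named were GRCm38 and mm10. No source used here gave the annotation, settings or strand. There were 0 columns of other samples. Gene names that a spreadsheet had made into dates were paired by date.

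The genes, 18 lists (224 symbols, all matched, Cnot9 as Rqcd1), tests and alternatives were chosen with earlier results of these data known. Named were all regulators, the 3 highest and the lowest gene of each list other than cell markers, the 2 genes nearest to each of the 3 highest regulators, and target genes set beside a regulator. Also named were Il1b and Il6 of the tristetraprolin targets, and Stmn2 and Nefl as the highest and lowest neuronal markers. Mapk14, Mapkapk2 and Malt1 were named after their values were seen.

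Levels used log2(FPKM + 1). Counts were rounded, filtered by edgeR 4.0.16 (R 4.3.3; 13246 genes kept), scaled by TMM and tested with a chi-square test of homogeneity with 2 degrees of freedom (scipy 1.17.1), with Benjamini-Hochberg adjustment at 0.05. Dispersions came from an intercept-only fit in edgeR. On simulated counts for these 13246 genes with counting error alone, the test called 52.0, 72.0, 76.0 and 98.0% of genes changed 1.25, 1.5, 2 and 4 times in 1 library and 0.0767% of the rest. When a coefficient of variation of 0.1 between libraries was simulated, it called 47.8% of unchanged genes, so it responds to any spread between libraries. Alternatives were pseudocounts of 0.1 and 0.01, CPM, TPM, DESeq2 1.42.0 size factors, library totals, filters, each library left out, library sizes set within 3 length classes, and the shortest 3′ UTR. Coordinates are 1-based and from GENCODE M21 (GRCm38). Protein sequences were not used here, so the planned search for zinc finger spacing was not run.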

Additional observations from a re-analysis of the deposited data

How the results depend on the processing

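In 5 of 7 neighbouring pairs the gene with the higher mean FPKM was higher in every library. That number was 5 or 6 under each alternative, from 5 to 6 with 1 library left out. Pairs that turned round are not in that number, and the pairs differed. In TMM-normalised CPM, which leaves out length, Khsrp exceeded Zc3h12a in every library. There the difference of Elavl1 and Rc3h1 turned from 0.27 to -0.61 in log2. That of Zc3h12a and Elavl1 turned from 0.11 to -1.06. Without replicate 2, the difference of Khsrp and Zc3h12a turned from 0.07 to -0.05. The median level of the regulators was 4.00 and 3.99 with pseudocounts of 0.1 and 0.01, 6.69 in CPM and 4.92 in TPM, which are other scales, and 4.05 to 4.11 with 1 library left out. The number of regulators called beyond counting error was 6 with DESeq2 size factors, library totals or no filter, beside 41.4, 41.6 and 37.7% of all genes tested, and 5 with sizes within 3 length classes, beside 37.1%. With 1 library left out it was 2 to 6: 6 without replicate 1, 2 without replicate 2 and 5 without replicate 3, beside 28.2, 18.6 and 23.5% of all genes. Without replicate 2, Zfp36 (adjusted p = 0.161), Zfp36l1 (0.168), Zc3h12a (0.745) and Rc3h1 (0.929) were no longer called by the chi-square test. Without replicate 3, Elavl1 was not called (0.779). The count of regulators with a nonamer was 3 with the shortest 3′ UTR. List medians moved beyond their SD in 16 of 48 comparisons with alternatives. No paired comparison of conditions was possible because there was 1 group. With 3 libraries no difference between genes could reach p < 0.05 in an exact test.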

Other observations

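Genes of the pathways that act on the regulators were also measured. Of 24 signalling genes 23 were detected, at a median log2(FPKM + 1) of 5.01 ± 0.02 (SD, n = 3). The kinase p38 and its target MK2 phosphorylate tristetraprolin, which 14-3-3 proteins then bind. Of the p38 genes, Mapk14 was at 100.4 ± 1.44 FPKM and Mapk11 lowest at 0.90 ± 0.435, and Mapkapk2, which encodes MK2, was at 61.0 ± 3.79 FPKM. The highest after Dusp1 were the 14-3-3 genes Ywhah at 323 ± 1.77 and Ywhae at 270.3 ± 9.62 FPKM. Malt1, a protease that cleaves Regnase-1 and roquins, was at 12.3 ± 1.71 FPKM (SD, n = 3). Of the 24 signalling genes, 8 were lowest in replicate 2, beside 35.4% of all genes tested.

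Of 20 other genes that bind or mark 3′ UTRs, 18 were detected, at a median of 4.60 ± 0.04. The poly(C)-binding protein gene Pcbp1 was highest at 160 ± 4.85, followed by the splicing regulator Ptbp1 at 113 ± 0.893 and Ybx1 at 108 ± 2.84 FPKM (SD, n = 3). These levels were between those of Zfp36l1 and Khsrp. Igf2bp1, a gene of fetal tissues, had 0, 0 and 1 counts.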
